A study of Mus musculus with 2 samples.

Results

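Mir139 is a single miRNA gene of the mouse that gives the mature miRNAs miR-139-5p and miR-139-3p. It is 1 of 2202 miRNA genes counted in left cerebral cortex of female 5xFAD/CAST mice aged 8 to 10 months, and it was chosen by its high level in these same counts. Its level is therefore given as a description, with no test. 5xFAD is a transgenic line whose transgenes are driven by the neuronal Thy1 promoter and whose brain forms amyloid plaques. The labels give the strain and no genotype for the individual animals. The 2 libraries, replicates 1 and 2, form 1 group, so there is no other genotype, age or treatment to set the level against. Both replicates come from different tissue samples that carry the same donor entry, and the labels do not say whether separate animals were used. The spread between them may be technical.

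MicroRNAs are cut from hairpin transcripts by Drosha and Dicer, and each mature strand then guides an Argonaute protein to transcripts that pair with its seed, the bases near its 5′ end. Mir139 lies within the gene of Pde2a, a phosphodiesterase that degrades cyclic AMP and cyclic GMP and is abundant in forebrain neurons. In human tumour cells miR-139-5p is known as a repressor of growth and migration genes, among them IGF1R, a growth factor receptor.

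The mature sequences are shown because the 5p seed sets which transcripts the miRNA can pair with, and because the counts sum both arms. The sequences are those of RefSeq on GRCm38.p6, and the GENCODE M21 hairpin was identical to the RefSeq one. The hairpin has its 5p and 3p arms in capitals, and each mature miRNA has its seed, bases 2 to 8, in capitals, all written 5′ to 3′.
mmu-mir-139 hairpin: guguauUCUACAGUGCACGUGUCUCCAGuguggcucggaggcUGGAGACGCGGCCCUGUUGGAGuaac
mmu-miR-139-5p: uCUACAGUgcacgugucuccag
mmu-miR-139-3p: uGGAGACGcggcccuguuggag

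The hairpin (ENSMUSG00000065446.1) spans 68 bases of the plus strand, chr7:101475376-101475443 on mm10. The 5p arm takes hairpin positions 7 to 28 and the 3p arm positions 43 to 64, with 14 bases between them. Of the hairpin bases, 58.8% were G or C, against a median of 51.7% over the 1005 hairpins of the RefSeq table. In the structure of lowest free energy that RNAfold predicted (-35.6 kcal/mol), 20 of the 22 bases of each arm were paired, and 19 pairs joined the arms. That is -0.52 kcal/mol per base, lower than in 87.9% of the hairpins, where the median was -0.41. The hairpin was shorter than most, since 69.4% of the others were longer.

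Neither seed was found in any other of the 1738 mature mouse sequences of the table, so by this measure Mir139 forms a seed family of its own. No stretch of 18 bases of the hairpin, on either strand, occurred in another hairpin or in another of 141767 annotated transcripts. A search of the whole genome was not made. The nearest mature sequences to the 5p arm, miR-128-3p among them, differed from it by 7 edits, and the nearest to the 3p arm by 6. Reads that map to several places stood outside the gene counts, and Mir139 shares no such stretch through which it would lose reads among these sequences.

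Mir139 lies in introns of 2 annotated protein-coding genes of its own strand. Pde2a (ENSMUSG00000110195.1) runs over chr7:101421691-101512827, and 10 of its 12 annotated transcripts contain the hairpin, all within an intron. In a coding transcript of 31 exons it sits in intron 2, which is 29902 bases long, 5927 bases before exon 3. Gm45837, a gene model that overlaps both Arap1 and Pde2a (ENSMUSG00000030653.17; chr7:101410886-101512819), carries it in intron 3, which is 19829 bases long. No gene of the opposite strand overlaps the hairpin. The counts do not tell which of these transcripts gave rise to the miRNA.

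**Figure D1:**
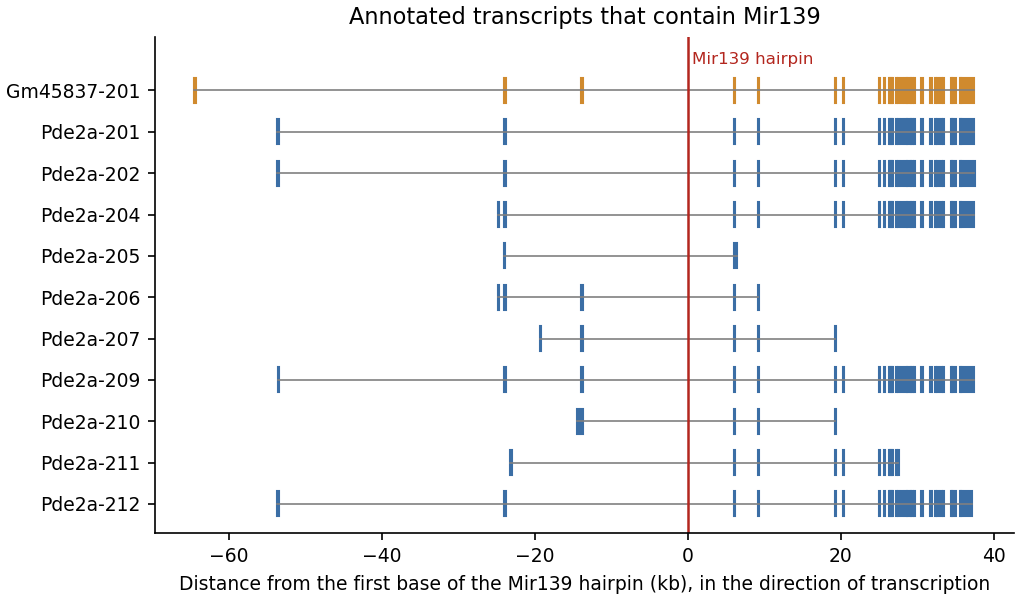
Exons (boxes) and introns (lines) of the annotated transcripts that contain Mir139, with distance from the first base of the hairpin in kb on the horizontal axis; Gm45837 is orange and Pde2a transcripts are blue. The red line of the hairpin crosses an intron in each of the 11 transcripts, and the next exon starts 5.93 kb downstream of the hairpin in all of them.

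Mir139 stands alone on its stretch of the chromosome. The nearest miRNA gene at lower coordinates, Mir3102, is 593 kb away on the other strand and had 846.6 ± 103 CPM (SD, n = 2), where CPM is counts on the strand of the gene scaled to a sum of 1000000 over all miRNA genes. The nearest one at higher coordinates, Gm22655, is 406 kb away and had 0 counts in both libraries. Of 153 miRNA genes on chromosome 7, 17 reached 10 CPM in both libraries. Mir139 held 88.3% of the counts of that chromosome in replicate 1 and 82.4% in replicate 2. Next in order there were Mir330 at 11113 ± 112 CPM, Mir708 at 2230 ± 619, Mir1839 at 1569 ± 293, Mir3099 at 884 ± 71.1 and Mir150 at 881 ± 287 (SD, n = 2 each).

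The counts of Mir139 were 606585 in replicate 1 and 470497 in replicate 2, out of 4226300 and 5162369 counts on miRNA genes. On the CPM scale it stood at 143526 in replicate 1 (exact Poisson 95% interval 143165 to 143888) and at 91140 in replicate 2 (90880 to 91401). These intervals cover counting error only and not the spread between libraries. They treat each read as an independent molecule, which was not checked. The level was 117333 ± 37043 CPM (SD, n = 2), a coefficient of variation of 31.6%, so the spread between the libraries was far wider than either counting interval. Mir139 had the higher count in replicate 1 although that library was the shallower one.

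As a share, 14.4% of the counts in replicate 1 (Wilson 95% interval 14.3 to 14.4) and 9.11% in replicate 2 (9.09 to 9.14) came from this 1 hairpin. Put another way, 1 count in 6.97 in replicate 1 and 1 in 11.0 in replicate 2 was a Mir139 count. In replicate 1 the 2155 least abundant miRNA genes together did not reach the count of Mir139, and in replicate 2 the 2142 least abundant ones did not. Over the 309 miRNA genes that reached 10 CPM in each library the median level was 249.5 CPM, and the mean level of Mir139 was 470 times that. In bulk tissue, a level that differs because of the number of cells of a type and one that differs because of the RNA per cell cannot be told apart.

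**Figure D2:**
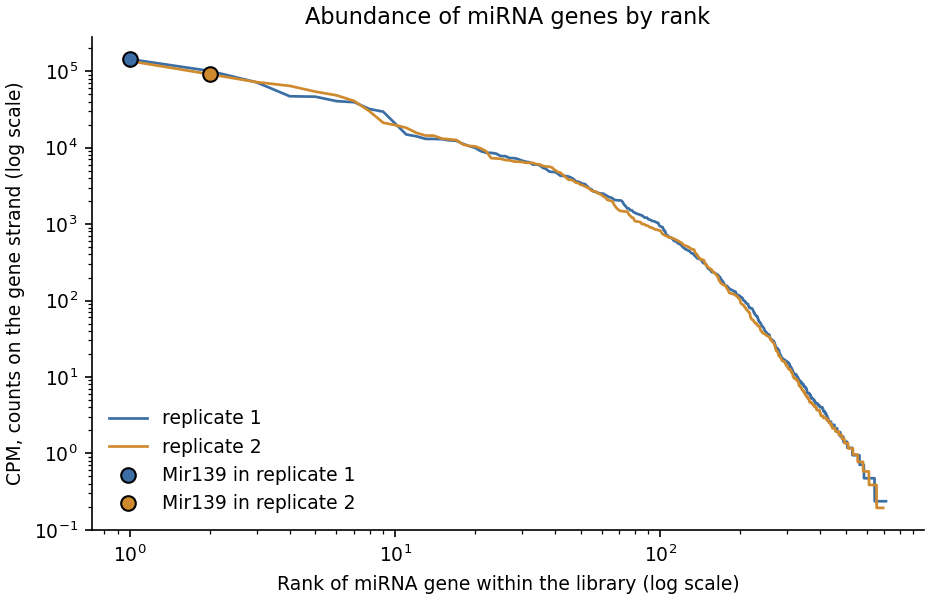
CPM of each miRNA gene with at least 1 count against its rank within the library, both on log scales, for replicates 1 (blue) and 2 (orange). Mir139, the filled circles, held rank 1 in replicate 1 at 143526 CPM and rank 2 in replicate 2 at 91140 CPM.

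Mir139 and Mirlet7g, a let-7 member that restrains proliferation, were the top pair, and their order changed between the libraries. Mir139 had 143526 CPM and Mirlet7g 100608 CPM in replicate 1, while in replicate 2 Mir139 had 91140 CPM and Mirlet7g 135551 CPM. Mir139 was thus 1.43 times Mirlet7g in replicate 1 and 0.672 times Mirlet7g in replicate 2. By the mean, Mir139 at 117333 ± 37043 CPM ranked 2 behind Mirlet7g at 118079 ± 24708 CPM (SD, n = 2 each). That difference is smaller than either SD, and the ranges of the 2 genes overlap.

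Every other miRNA gene lay below Mir139 in both libraries. Mirlet7b followed at 71452 CPM in replicate 1 and 71982 in replicate 2, so Mir139 was 2.01 and 1.27 times as high. Mirlet7i had 46367 and 64228 CPM, Mir744 had 46984 and 48376, and Mirlet7d had 39274 and 53995, each in replicate 1 and replicate 2. Of the 5 genes ranked next, the lowest was Mir127, an imprinted miRNA antisense to Rtl1, with 31984 CPM in replicate 1 and 40736 in replicate 2. None of these 5 overlapped the range of Mir139, while several overlapped one another. Reads span a mature miRNA and not the hairpin, so levels here are not divided by length; per base of hairpin Mir139 had 1725 CPM on average and Mirlet7g 1342, which puts Mir139 at rank 1.

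**Figure D3:**
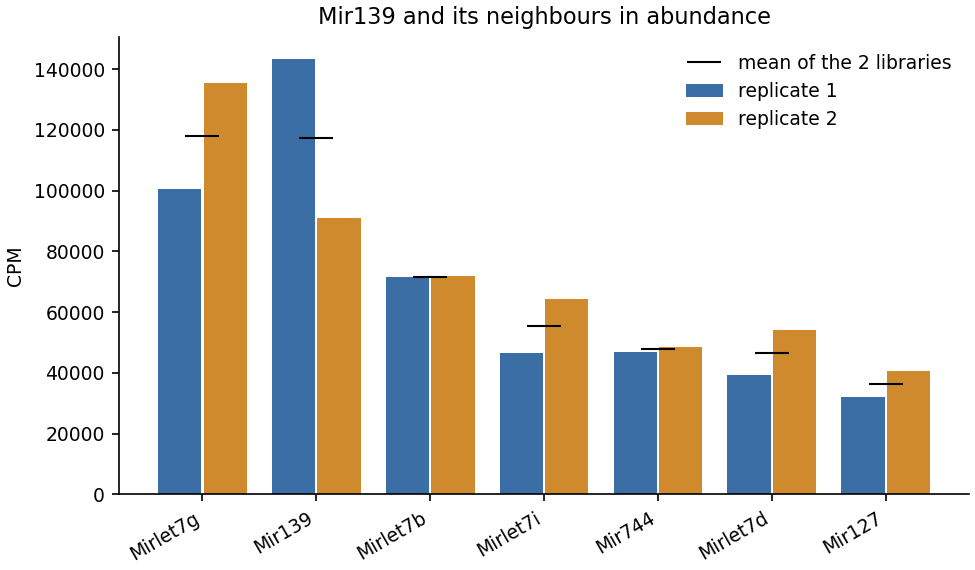
CPM of Mir139 and of the genes next to it in mean abundance, with replicate 1 in blue, replicate 2 in orange and a black line at the mean of the 2 libraries. Mir139 and Mirlet7g exchange the top place between the libraries, and the other 5 genes lie below both values of Mir139.

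How dominant Mir139 looks depends on what is counted as the whole. Replicate 1 held 5244644 reads that map to several places and replicate 2 held 6290303, more than all counts on miRNA genes. With those reads in the denominator, Mir139 took 6.40% in replicate 1 and 4.11% in replicate 2. Of all mapped reads it took 5.89% and 3.77%, and of all reads 4.67% and 2.95%. Reads of families with near-identical copies, such as those of Mir124a and Mir9, can fall into that class. The rank of Mir139 is therefore one among uniquely placed reads.

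Mir139 also weighed on the share that intronic hairpins held. Of 793 hairpins within an intron and outside any exon of their own strand, 135 reached 10 CPM in both libraries, and Mir139 ranked 2 among them. It made up 26.6% of intronic counts in replicate 1 and 17.8% in replicate 2. With Mir139, intronic hairpins held 54.0% of all counts in replicate 1 and 51.2% in replicate 2. Without it, they held 46.3% of the remaining counts in each library.

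The counts of Mir139 lay on 1 strand. On the opposite strand the count was 0 in each library, which allows up to 3 counts, or 0.000495% of the Mir139 count in replicate 1 and 0.000638% in replicate 2. The column that ignores strand held the same 606585 and 470497 counts as the column on the gene's strand. The tables sum both arms, so the shares of miR-139-5p and miR-139-3p were not measured.

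Between the libraries, Mir139 was 1.61-fold higher in replicate 1 than in replicate 2 after TMM scaling, a log2 ratio of 0.69 (exact binomial 95% interval 0.68 to 0.69, counting error only). With 1 library on each side there is no test, and the ratio compares these libraries, not conditions. Ratios of this size were common. Of 546 genes with 10 or more counts over both libraries, 26.7% were at least 1.5-fold higher in replicate 1 and 16.8% at least 1.5-fold higher in replicate 2. Among the 93 genes with a mean of 1000 CPM or more these shares were 22.6% and 6.45%, and 16 of the 93 had a larger ratio towards replicate 1 than Mir139. The median fold in either direction over those 93 genes was 1.28.

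**Figure D4:**
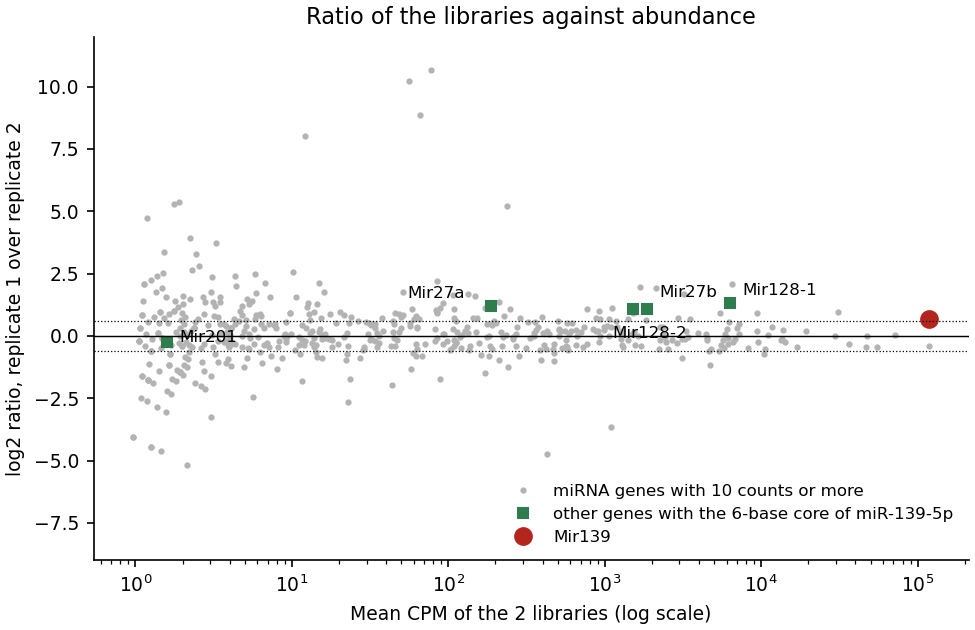
The log2 ratio of replicate 1 over replicate 2 against mean CPM (log scale) for miRNA genes with 10 or more counts over both libraries, with dotted lines at 1.5-fold in each direction. Mir139 (red) lies at 0.69 at the far right, and of the 5 other genes whose mature arm holds the base core ACAGUG (green squares), Mir27a, Mir27b, Mir128-1 and Mir128-2 lie above it and Mir201, at 1.58 CPM, below 0.

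Of the 10 most abundant genes, Mir139 had the largest difference in CPM between the libraries, 52387 as replicate 1 minus replicate 2. In absolute size Mirlet7g came next, at -34943, and among genes higher in replicate 1 the activity-induced neuronal Mir132 did, at 19388. Mirlet7i differed by -17861 CPM and Mirlet7d by -14721, and the TMM-scaled log2 ratios of Mirlet7g, Mirlet7i and Mirlet7d were -0.40, -0.44 and -0.43. Mirlet7b was nearly level, at -529 CPM but at a TMM-scaled fold of 1.01, so its direction turned with the scaling.

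Ratios within a library do not depend on scaling. Against the let-7 family with Mir98 (12 genes), Mir139 stood at 0.483 of their summed CPM in replicate 1 and 0.248 in replicate 2. Against 14 neuronal marker miRNA genes it stood at 1.96 times their sum in replicate 1 and 1.90 times in replicate 2. Mir132 made up more of that sum than any other marker; without it the values were 4.38 in replicate 1 and 3.40 in replicate 2. As the ratio in replicate 1 over that in replicate 2, this was 1.95 relative to let-7, 1.03 relative to the neuronal list, 1.29 relative to that list without Mir132 and 0.822 relative to Mir132 alone. The neuronal markers did not move as 1 group, so the value for the list depends on Mir132. The list without Mir132 still holds Mir128-1, at 9000 CPM in replicate 1 and 3687 in replicate 2. Its value therefore depends on Mir128-1. The let-7 and neuronal sums cover uniquely placed reads only. Members encoded at several loci, such as Mirlet7a-1 and Mirlet7a-2 or Mir128-1 and Mir128-2, can lose reads that map to several places. Both sums can therefore be too low beside Mir139, by an amount that was not measured.

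**Figure D5:**
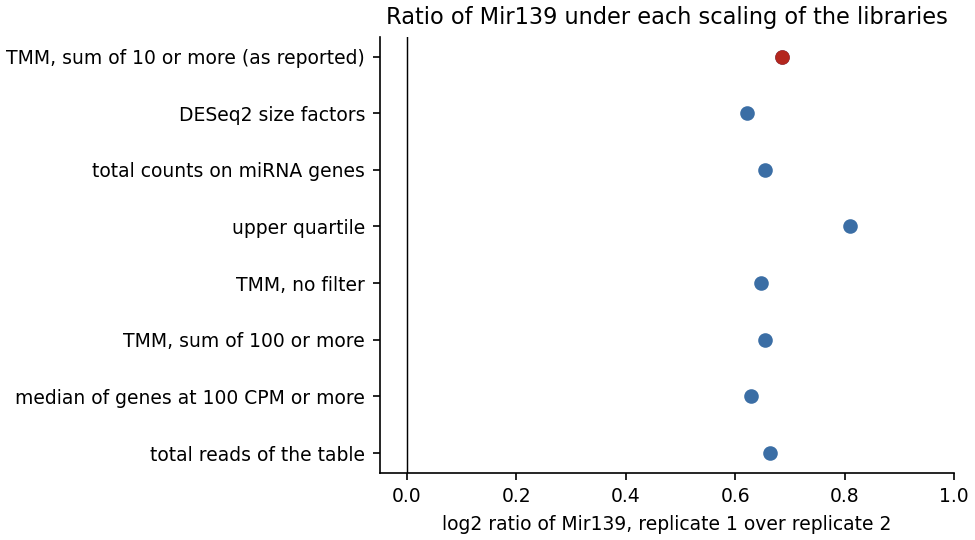
The log2 ratio of Mir139, replicate 1 over replicate 2, under each scaling of the libraries; the red point is the value reported in the text and the vertical line marks equal levels. The points run from 0.62 with DESeq2 size factors to 0.81 with the upper quartile, all on the side of replicate 1.

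The genes with the ratio nearest to that of Mir139, among those with a mean of 1000 CPM or more, were Mir667, Mir342, Mir1249, Mir338 and Mir31. Their log2 ratios were 0.69, 0.68, 0.67, 0.73 and 0.64, against 0.69 for Mir139. Likeness here is the absolute difference of log2 ratios over 2 libraries, which is 1 value per gene. Mir338 is a miRNA of oligodendrocytes and Mir667 belongs to the imprinted Dlk1-Dio3 cluster. The oligodendrocyte marker Mir219a-2 did not share the ratio of Mir338, with a log2 ratio of 0.20. Mir219a-1 stood at -0.56 but was scarce, with 35 counts in replicate 1 and 65 in replicate 2. The genes nearest in ratio were far less abundant than Mir139, with means between 1064 CPM for Mir667 and 3501 CPM for Mir342.

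Sequences near the 5p seed were also compared, in a choice made after these values were seen. Bases 4 to 9 of miR-139-5p read ACAGUG, and this core was searched on the given strand within bases 1 to 9 of all 1738 mature sequences. It was found in 7 of them (0.403%), Mir139 included. The 3 below, with the core in capitals, are shown beside miR-139-5p because their genes ranked above Mir201 and Mir216a, the others with the core. Mir27a was not abundant, at a mean of 186 CPM. Mir128-1 and Mir128-2 give the same mature sequence.
mmu-miR-139-5p: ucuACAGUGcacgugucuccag
mmu-miR-128-3p: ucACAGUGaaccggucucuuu
mmu-miR-27b-3p: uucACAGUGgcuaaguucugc
mmu-miR-27a-3p: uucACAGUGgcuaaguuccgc

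The core lies at bases 4 to 9 of miR-139-5p and of both miR-27 sequences, and at bases 3 to 8 of miR-128-3p, so none of the seeds is the same as that of miR-139-5p. Mir128-1, which is neuronal, had 9000 CPM in replicate 1 and 3687 in replicate 2. Mir128-2 had 2052 and 996, Mir27b had 2495 and 1208, and Mir27a had 258 and 115, in the same order. These 4 genes were 2.49-, 2.11-, 2.11- and 2.29-fold higher in replicate 1 than in replicate 2, on the same side as Mir139 and by more. The counts take uniquely placed reads of either arm of each hairpin, so these ratios are not specific to the arm that holds the core. Over all genes, 130 of the 546 tested had a ratio at or above that of Mir139, and 76.0% lay below it. These 4 genes stand for only 2 families of near-identical mature sequences. Mir201, with 6 and 9 counts, and Mir216a, with 1 and 4 counts, were too scarce to place. Reads of the shared miR-128-3p can map to both Mir128 genes, and reads that map to several places stood outside the gene counts. The counts of Mir128-1 and Mir128-2 may therefore hold little of the arm with the core, and their ratios are not measures of miR-128-3p. Mir27a and Mir27b differ by few bases, so their counts are uncertain too. The genes were not picked independently of their values, and no test was made.

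Marker miRNAs of cell types were read to check the tissue label and what else differed between the libraries. Of 14 neuronal markers, 11 reached 10 CPM in both libraries, and the list summed to 73374 CPM in replicate 1 and 48019 in replicate 2. The 3 Mir124a genes, whose near-identical copies can lose reads, did not reach 10 CPM. Other markers encoded at more than 1 locus, such as Mir128-1 and Mir128-2, can lose reads in the same way. That sum differed mainly through Mir132, at 40577 and 21189 CPM, and Mir128-1. Mir137, at 6008 and 5769 CPM, and Mir383, at 7295 and 7140, were nearly level. Mir138-1, at 4244 and 4820 CPM, and Mir138-2, at 2577 and 3206, were higher in replicate 2. Mir128-2, at 2052 and 996 CPM, Mir129-2, at 1156 and 902, and Mir129-1, at 235 and 157, were higher in replicate 1. So were Mir218-2, at 189 and 117 CPM, and Mir218-1, at 37.6 and 30.6. Oligodendrocyte markers (2 of 3 at that level) summed to 7100 and 5341 CPM, the endothelial Mir126a stood at 7756 and 13122, and microglial and leukocyte markers (2 of 3) summed to 261 and 288. Red blood cell markers (1 of 2) summed to 36.2 CPM in replicate 1 and 861 in replicate 2. The 4 Mir302 genes of pluripotent cells summed to 423 CPM in replicate 1 and 0.194 in replicate 2, none reaching 10 CPM in both. Muscle markers (1 of 5, Mir206) summed to 39.04 and 52.3 CPM, with Mir133a-1, Mir133a-2 and Mir1a-1 at 0 counts in both, and the hepatic Mir122 stood at 48.5 and 86.6. The part of these differences in the ratio of Mir139 was not tested.

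Sites that pair with the seed of miR-139-5p were looked for in the mouse genes of 6 targets known from human cells and in the host Pde2a. The match to bases 2 to 8 is ACTGTAG, and ACTGTAGA is the longer form with an A opposite base 1. Over the longest annotated 3′ UTR of each of 21037 mouse protein-coding genes, on the transcript strand, 11.0% held ACTGTAG and 3.71% held ACTGTAGA. The sites below, from 3 of the genes, are printed to show what the seed pairs with, the match in capitals; the second Cxcr4 site follows the first without a gap.
Cxcr4 first site: ttatctgtgtgtaggACTGTAGA
Cxcr4 second site: gtgtaggactgtagaACTGTAGA
Igf1r: atacctgttttaatcACTGTAGA
Fos: tagctatatccatgtACTGTAGt

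Cxcr4, a chemokine receptor, held the longer form at bases 267 to 274 and 275 to 282 of a 3′ UTR of 644 bases, where 5.00% of the 3′ UTRs of like length (within a factor of 0.8 either way) held the shorter one. Igf1r held 2 matches in 7267 bases, 1 of them in the longer form at bases 2596 to 2603; at that length 44.6% of 3′ UTRs held one. Fos, an activity-induced transcription factor, held 1 match at bases 537 to 543, where 5.93% of 3′ UTRs of like length held one. The receptor Notch1 held 1 at bases 1534 to 1540, and at its length 13.3% of 3′ UTRs held one. No match was found in the 3′ UTRs of the small GTPase Rap1b, the kinase Rock2 or Pde2a. At their lengths 15.8%, 24.5% and 9.20% of 3′ UTRs held one, in that order. Other forms of site, such as shorter matches, were not searched. Seed matches are among the reasons targets are put on such lists, so their number here is a description. Target transcripts were not measured in these samples.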

How the data were processed

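The members and lists were chosen with earlier results of these data known. Small RNA libraries were made from total RNA of left cerebral cortex, with a labelled size range under 30 nt. Per the file records, the authors deposited 1 table of raw read counts per library, for GENCODE M21 miRNA genes on mm10; no source used here names the aligner, the counter or the trimming. All 2202 IDs matched M21, which gave names and positions. Rows that name no gene (67.4% and 67.6% of reads) stayed out of library sizes. Levels are CPM on the gene's strand. Ratios are replicate 1 over replicate 2, TMM-scaled (edgeR 4.0.16; genes with 10 counts or more in the sum), with 0.5 counts added; intervals are at 95%. With 1 group no count test was possible. Ratios were checked on simulated counts with Poisson error only and known folds. That checks the calculation and not the choice of scaling for these libraries. Named genes were those around Mir139 in rank (5 each side), nearest in ratio (5 genes at 1000 CPM or more), most abundant on chromosome 7 (5), nearest by position, sharing a seed, hosts, and 6 known targets; genes outside these were named with their values in view. Alternatives changed column, denominator, scaling (DESeq2 1.42.0 size factors among others), filter and pseudocount. Hairpins were folded with RNAfold 2.7.2. Reads of a strain that differs from the reference could map less well, which was not analysed.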

Additional observations from a re-analysis of the deposited data

How the results depend on the processing

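The mean level of Mir139, 117333 CPM, became 52564 CPM with reads mapping to several places in the denominator, 48311 CPM over all mapped reads and 174105 CPM without the let-7 family in the denominator. Leaving out 1 library at a time gave 91140 to 143526 CPM, which lies within 1 SD by construction. The rank, 2 by the mean, was 1 to 2 over the single libraries, and 1 per base of hairpin, an alternative added after seeing the data. The log2 ratio of 0.69 became 0.62 with DESeq2 size factors, 0.66 with total counts on miRNA genes, 0.81 with the upper quartile, 0.65 with TMM and no filter, 0.65 with TMM at 100 counts or more, 0.63 with the median of genes at 100 CPM or more and 0.66 with total reads; it kept its sign in each. It moved beyond its counting interval because that interval is narrow at this depth. Genes at least 1.5-fold higher in replicate 1 numbered 146 of 546, against 246 of 775 with no filter and 73 of 326 at 100 counts or more. That number was 176 with the upper quartile and 137 to 142 under the other alternatives. Without Mir139 in the denominator the mean level was 133929 CPM, and with the column that ignores strand 125969 CPM. A pseudocount of 5 counts left the log2 ratio at 0.69. A ratio cannot be had without a library, and no paired analysis was possible because there is 1 group. Since the labels do not say that the animals were separate, the SDs are between libraries.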
